A study of Mus musculus with 56 samples.

Results

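During reprogramming of mouse embryonic fibroblasts to induced pluripotent stem cells, 150 genes showed a dip. They were expressed in the starting fibroblasts, lower in the SSEA1+ cells of day 6, and higher again in the GFP+ cells of day 12. They were chosen in the control shRNA libraries as the 150 genes with the largest ratio of the lower of the day 0 and day 12 means to the day 6 SSEA1+ mean, with 10 added to both, among genes whose day 0 and day 12 means were both at least 300. Of the 13451 genes in the sorted-cell table, 7059 met that level minimum. No upper limit was set on the day 6 SSEA1+ mean. Some members stayed above the library median of 500 there, such as Tgif1 with 710.5. Of the 150 genes, 148 were annotated as protein coding and 2 as other types.

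The cells were mouse embryonic fibroblasts of the OG2 strain, which carries a green fluorescent protein gene driven by Oct4 regulatory sequence, at passage 2. For reprogramming, the cells were infected with an inducible lentivirus that expresses Oct4, Sox2, Klf4 and Myc from a single transcript. They were also infected with the doxycycline-dependent activator rtTA, and were kept in embryonic stem cell medium with vitamin C and doxycycline at 2 μg/ml. They carried an shRNA against Ctcf (shCTCF) or the control shRNA against luciferase (shLuci). Under each shRNA, 11 populations were profiled by RNA-seq in 2 libraries each, 44 libraries in all of the 56 samples of the series. These were cells of day 0 (D0), cells of days 3, 6 and 9 (D3, D6, D9) sorted as SSEA1+, as SSEA1-Thy1- (double negative) or as Thy1+, and GFP+ cells of day 12 (D12). At D0, the start of this course, Pou5f1, the gene of Oct4, had means of 264.5 with shLuci and 175 with shCTCF. Its means were 5046 to 14942.5 in the D3 populations, so D0 cells did not share the Oct4 levels of these. Each library is a pool of cells, so levels are averages over the cells of a sort gate. The labels do not say that the 2 libraries of a group came from separate cultures, so p-values measure the spread between these libraries, which may be technical.

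Thy1 is a surface protein of fibroblasts that is lost early in reprogramming, and SSEA1 is a carbohydrate antigen that appears on cells that are advancing. Fibroblasts lay down a matrix of collagens and fibronectin, anchor to it through integrins and a contractile actin cytoskeleton, and answer serum, cytokines and injury with immediate early and inflammatory genes. Early in reprogramming they pass through a mesenchymal-to-epithelial transition in which this programme is lowered. CTCF is a zinc finger protein that binds insulator elements and, with cohesin, anchors chromatin loops. At the imprinted Igf2 and H19 genes it binds the unmethylated maternal control region between them.

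The values are the authors' normalized values per gene, whole numbers with a median of 500 in every library. All 44 libraries shared the top value of 933110, and at the 11515 ranks with a mean of at least 100 no library was more than 0.028 from the median library on the log2 scale. Library totals were therefore nearly equal, at 31777102 to 31798964. The values thus place each gene within a common distribution, differences are relative to the other genes, and the depth of the libraries is unknown. Ctcf, the shRNA target, had values of 390 to 865 in the shCTCF libraries and of 790 to 2441 in the shLuci libraries. Over the 8 populations not used to choose the genes, Ctcf differed by -1.09 on the log2 scale (SE 0.030, adjusted p = 9.01e-20 by limma with Benjamini-Hochberg adjustment), between -0.76 in D3 Thy1+ cells and -1.39 in D6 double negative cells. In bulk samples, fewer cells of a type and less RNA per cell cannot be told apart.

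The members are described by role, assigned from general knowledge of each gene. There were 25 matrix proteins and proteoglycans, 22 genes of adhesion and the cytoskeleton, 17 growth factors, receptors and signalling genes, 13 matrix enzymes and their inhibitors, 12 inflammatory and innate immune genes, 11 transcription and immediate early genes, 7 genes of iron, haem and redox metabolism, 4 imprinted genes, 18 other transport and metabolic genes, and 21 genes of other or unassigned role. Of the 31 genes in a list of fibrillar matrix genes, 13 were members, among them Fn1, Col1a1, Col1a2, Col3a1, Postn and Bgn. Members made up 1.12% of all genes and 2.12% of the genes at the level minimum. The list of matrix processing enzymes gave 6 of 22, and that of actin cytoskeleton and contractile genes (the actin list) 4 of 33. The list of imprinted genes gave 4 of 27, and that of NF-kB and inflammatory genes (the NF-kB list) 3 of 27. In the fibrillar matrix list 24 genes met the level minimum, in the matrix enzyme list 15, in the actin list 23, in the imprinted list 17 and in the NF-kB list 12.

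Promoters of 5 inflammatory, immediate early and cytoskeletal members are shown because they hold an element known from serum and cytokine responses, and the levels of these genes are described further on. RefSeq promoter sequences of GRCm38.p6, 250 bases before and 50 bases after the transcription start, were found for 112 of the 150 genes and for 10252 genes of the table. Motifs were searched on both strands. A κB site, the element bound by NF-kB, was present in 16 of the 112 promoters (14.3%, against 9.97% of all promoters), and a CArG box, the element bound by serum response factor, in 5 (4.46%, against 1.35%). The AP-1 element TGANTCA was present in 8.93% of member promoters and 5.13% of all promoters, the GC box GGGCGG in 75.9% and 64.3%, the TATA box TATAAA in 11.6% and 7.26%, and the TEAD element GGAATG in 12.5% and 11.9%. The E-box CACGTG was present in 5.36% of member promoters against 10.2% of all promoters, CCAAT in 33.9% against 39.2%, and the antioxidant response element TGACNNNGC in 17.0% against 14.5%. The median GC content was 63.7% in member promoters and 61.0% in all promoters. These matches describe the letters only, and binding was not measured. The 5 promoters shown are a selection, and the same elements lay in members of other roles. κB matches also lay in Adamts9, Nup62cl, Cyp1b1, Gfpt2, Ifitm3, Sdc4, Ftl1, Sh3bgrl3, Fbln1, Vegfa, Pdlim7, Dbn1 and Flnc. The other CArG matches lay in Rasa4, Blvrb and Glipr2, and the promoters of Acta2, Flnc and Junb held none. In the 5 promoters below, capitals mark the κB match in Cxcl1, a chemokine of neutrophils, in Tnfaip3, an inhibitor of NF-kB signalling, and in Tnfaip2, a gene induced by tumour necrosis factor, and the CArG match in Zfp36, a protein that destabilizes AU-rich mRNAs, and in Cnn2, the actin-binding protein calponin 2. The Cxcl1 promoter holds 2 overlapping κB matches at -71 and -70 from the start, that of Tnfaip3 holds 2 at -125 and -12, and that of Tnfaip2 holds 1 at -24. The CArG match lies at -58 in Zfp36 and at -56 in Cnn2.
Cxcl1 promoter, chr5:90890995-90891294, + strand: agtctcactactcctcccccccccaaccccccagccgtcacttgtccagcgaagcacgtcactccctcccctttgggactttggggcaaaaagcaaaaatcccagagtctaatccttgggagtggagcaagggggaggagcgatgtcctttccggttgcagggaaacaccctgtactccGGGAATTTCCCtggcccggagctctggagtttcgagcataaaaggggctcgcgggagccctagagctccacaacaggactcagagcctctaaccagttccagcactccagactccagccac
Tnfaip3 promoter, chr10:19015361-19015660, - strand: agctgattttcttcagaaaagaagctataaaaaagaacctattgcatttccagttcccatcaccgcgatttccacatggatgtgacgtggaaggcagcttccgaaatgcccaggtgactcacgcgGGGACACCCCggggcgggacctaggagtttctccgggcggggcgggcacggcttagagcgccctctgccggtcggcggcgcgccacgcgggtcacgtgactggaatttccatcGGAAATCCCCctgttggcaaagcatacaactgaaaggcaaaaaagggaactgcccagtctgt
Tnfaip2 promoter, chr12:111442411-111442710, + strand: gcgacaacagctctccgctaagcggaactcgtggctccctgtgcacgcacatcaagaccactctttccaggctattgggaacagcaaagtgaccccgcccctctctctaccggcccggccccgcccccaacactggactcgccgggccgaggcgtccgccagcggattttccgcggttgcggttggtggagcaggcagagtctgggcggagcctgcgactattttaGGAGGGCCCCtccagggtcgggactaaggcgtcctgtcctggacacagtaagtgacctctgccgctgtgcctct
Zfp36 promoter, chr7:28379179-28379478, - strand: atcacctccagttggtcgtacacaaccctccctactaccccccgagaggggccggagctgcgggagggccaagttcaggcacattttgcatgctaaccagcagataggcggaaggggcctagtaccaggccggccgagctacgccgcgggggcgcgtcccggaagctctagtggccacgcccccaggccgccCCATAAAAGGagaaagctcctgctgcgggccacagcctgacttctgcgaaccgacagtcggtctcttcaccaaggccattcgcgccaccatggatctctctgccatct
Cnn2 promoter, chr10:79988350-79988649, + strand: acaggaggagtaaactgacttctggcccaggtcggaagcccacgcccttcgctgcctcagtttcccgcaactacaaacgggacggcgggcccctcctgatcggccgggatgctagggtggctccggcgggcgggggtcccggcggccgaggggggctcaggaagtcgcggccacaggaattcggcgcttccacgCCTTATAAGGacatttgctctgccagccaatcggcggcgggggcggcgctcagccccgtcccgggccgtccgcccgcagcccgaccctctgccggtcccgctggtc

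The values of D0, D6 SSEA1+ and D12 GFP+ cells with shLuci are the measured values by which the genes were selected, and they are given as a description. The genes were chosen by their mean normalized values in these 6 libraries. The median of the 150 genes was 163.75 in D6 SSEA1+ cells, against 1646.75 in D0 cells and 816.25 in D12 cells. The median ratio was 3.69. Lrp2, the endocytic receptor megalin, had the largest ratio of 23.04, with 32 and 31 in D6 SSEA1+ cells, against 2238 and 2059 in D0 cells and 916 and 976 in D12 cells. Nrk, a kinase of the germinal centre kinase family, followed with 42 and 37 in D6 SSEA1+ cells, against 1035 and 877 in D0 cells and 1109 and 1052 in D12 cells. B3gnt5, a glycosyltransferase of lacto-series glycolipid synthesis, had 34 and 40 in D6 SSEA1+ cells, against 1074 and 962 in D0 cells and 850 and 962 in D12 cells. In these genes the 2 libraries of a population lay close together. The next were Adamts9, a secreted metalloprotease, Sgk1, a serum- and glucocorticoid-induced kinase, Cxcl1, Igf2, an imprinted growth factor, Spp1, the matrix protein osteopontin, an unnamed transcript that overlaps Igf2, Fblim1, an adaptor at cell junctions, Gcnt2, a glycosyltransferase, Irgm1, an interferon-induced GTPase, Syk, a tyrosine kinase, Fn1, fibronectin, and Cgnl1, a junction protein. Fn1 had 2856 and 2784 in D6 SSEA1+ cells, against 80222 and 67664 in D0 cells and 25824 and 28124 in D12 cells.

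At the edge of the choice, the last genes taken were Spry2, a feedback inhibitor of receptor kinase signalling, with a ratio of 2.55, and the transcription regulators Tgif1 and Klf2, both with 2.53. Among the first genes not taken were Tns3 and Xbp1, both with 2.51. At the level minimum, Ror2, a WNT receptor, had the lowest D0 mean of 301.

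The return by day 12 was partial for most members. The D12 mean exceeded the D0 mean in 31 genes, lay between 10% and 100% of it in 105 and was under 10% of it in 14, with a range of 1.96% to 546% and a median of 51.9%. By role, the median D12 level was 17.3% of D0 for matrix enzymes, 24.7% for matrix proteins and 34.2% for adhesion and cytoskeleton. It was 53.4% for growth factors and receptors, 68.4% for inflammatory genes, 79.3% for transcription and immediate early genes and 85.1% for iron, haem and redox genes. The median of the 4 imprinted genes was 277%, with 3 above their D0 level and Igf2 at 33.9% of it. The 150 genes together made up 0.182% of the summed gene values in D6 SSEA1+ cells, against 2.99% in D0 cells and 0.937% in D12 cells. Acta2, smooth muscle actin, had 500 and 588 in D6 SSEA1+ cells, against 68432 and 56691 in D0 cells and only 1520 and 1458 in D12 cells. Klf2 had the opposite tilt, with 196 and 198 in D6 SSEA1+ cells, against 536 and 490 in D0 cells and 2316 and 3282 in D12 cells.

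**Figure D1:**
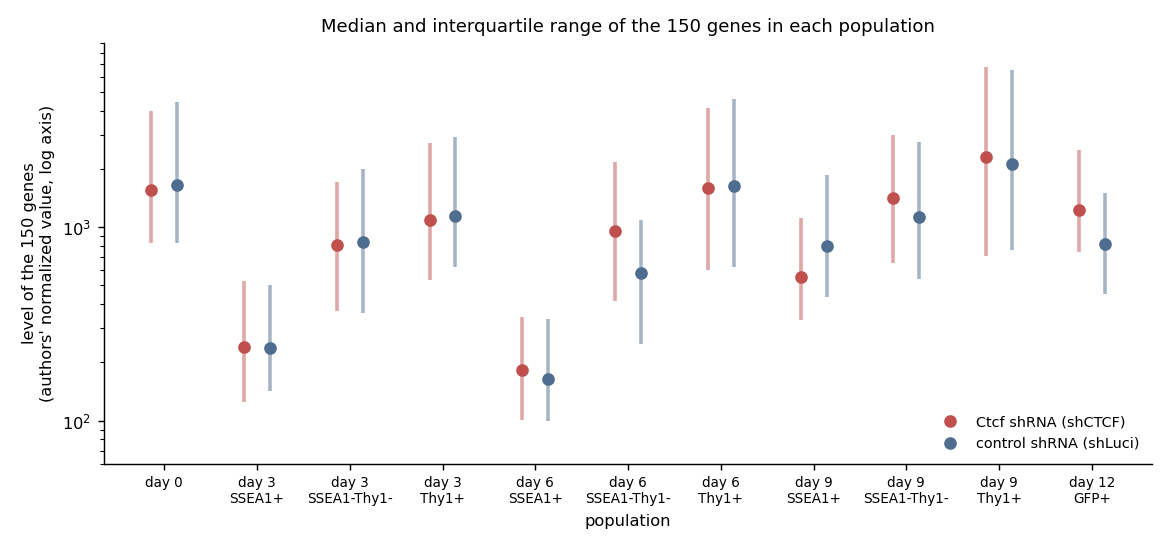
Median (points) and interquartile range (bars) of the 150 genes in the 11 populations on a log axis of normalized values, with shCTCF left of shLuci in each pair. The medians were lowest in the SSEA1+ cells of days 3 and 6 (239.75 and 182.5 with shCTCF, 237.25 and 163.75 with shLuci), and the D0, D6 SSEA1+ and D12 shLuci libraries chose the genes.

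The shCTCF libraries were not used to choose the genes, and the dip was present in them. The ratio was above 1 in 149 of the 150 genes and above 2 in 139, with a median of 5.91 and a range of 0.988 to 36.8. Of the 7252 genes at the level minimum in shCTCF libraries, 30.5% had a ratio above 1 and 8.11% one above 2, with a median of 0.793. By the same rule in shCTCF, 81 of the 150 genes (54.0%) were again among the first 150. In a limma fit over all 44 libraries, with Benjamini-Hochberg adjustment over the 13451 genes and a threshold of 0.05 on the adjusted p, 149 members were lower in D6 SSEA1+ than in D0 cells and 0 higher (35.1% and 41.3% of all genes), and 147 were lower and 0 higher in D6 SSEA1+ than in D12 cells (31.4% and 39.1% of all genes). The median differences were -3.31 and -2.76 on the log2 scale. Both calls were met by 146 members, against 18.8% of all genes and 18.2% of the genes at the level minimum. Among the 4 exceptions were Cd36, a fatty acid receptor (-0.43 against D12, adjusted p = 0.273), Mrc1, the macrophage mannose receptor (-0.99 against D12, adjusted p = 0.0809, and 0.035 without the first D12 library), and Tmsb10, an actin monomer-binding peptide (0.01 against D12, adjusted p = 0.975). Of these, Cd36 and Tmsb10 are named after their values were seen. Macrophage markers that are not members summed to 12118.5 in D0 shCTCF cells and 8293.5 in D0 shLuci cells, against 753 to 2346.5 in all sorted populations, and their part in the D0 levels of the immune members was not tested. The summed level of fibroblast markers that are not members followed the same course. With shCTCF it was 1092 in D6 SSEA1+, 5113.5 in D0 and 4329 in D12 cells, and with shLuci 695, 5033.5 and 1690.5 in these populations. Singly, Dcn, Lum and Pdgfra did so under both shRNAs. Cd34 with shCTCF had no dip from D0, with means of 211 in D0, 211.5 in D6 SSEA1+ and 2214 in D12 cells. Twist2 with shLuci had no return, with 32 in D6 SSEA1+ and 24 in D12 cells. The 7 non-member smooth muscle markers summed to 982.5 in D6 SSEA1+, 41817.5 in D0 and 3238 in D12 cells with shCTCF. The part of cells of these types in the dip and the return was not tested.

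Lrp2 had 32 and 24 in D6 SSEA1+ shCTCF cells, against 2958 and 1951 in D0 and 918 and 912 in D12 shCTCF cells. The groups did not overlap, and the differences on the log2 scale were -6.39 (SE 0.198, adjusted p = 8.84e-21) against D0 and -5.00 (adjusted p = 1.14e-17) against D12. Sgk1 had 143 and 180 in D6 SSEA1+ shCTCF cells, against 3016 and 3032 in D0 and 1744 and 1695 in D12 shCTCF cells. Its differences were -4.23 (SE 0.0764, adjusted p = 1.15e-25) and -3.41 (adjusted p = 1.41e-22), again without overlap. Fn1 had 3338 and 3661 in D6 SSEA1+ shCTCF cells, against 87898 and 61662 in D0 cells and 75677 in both D12 libraries. Fn1 thus fell by 4.40 (SE 0.164, adjusted p = 4.84e-19) against D0 and by 4.44 (adjusted p = 2.68e-18) against D12. All 25 matrix proteins were lower in D6 SSEA1+ than in D0 (median -4.35) and than in D12 cells (median -3.47). The 4 imprinted genes had the reverse balance, with a median of -1.94 against D0 and -5.59 against D12.

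**Figure D2:**
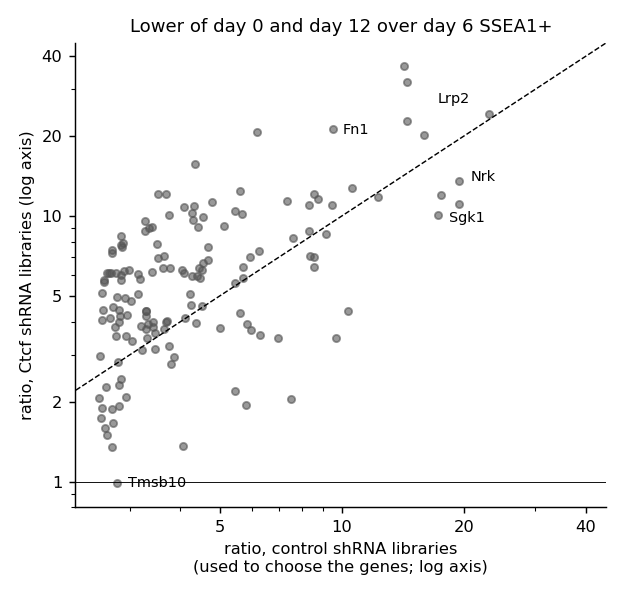
Ratio of the lower of the D0 and D12 means to the D6 SSEA1+ mean for the 150 genes in shCTCF (vertical) and shLuci libraries (horizontal), both on log axes. The shLuci ratio chose the genes and starts at 2.53, while the shCTCF ratio spans 0.988 to 36.8 and is above 2 in 139 genes.

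The members were not low in SSEA1+ cells of day 6 alone. In shLuci, D6 SSEA1+ was the lowest of the 11 populations for 105 genes and D3 SSEA1+ for 38, and the other 7 had their lowest level in a double negative or Thy1+ population. In shCTCF the same 2 populations were lowest for 102 and 43 genes. The highest level was in D0 for 57 genes, in D9 Thy1+ cells for 56, in D12 cells for 19 and in D9 SSEA1+ cells for 9 in shLuci. Within SSEA1+ cells the level at day 6 was below that at day 3 in 108 genes, and at day 9 it was above that at day 6 in all 150. Both counts include the D6 libraries that chose the genes. In shCTCF, which did not choose them, the corresponding counts were 106 and 150. The share over all genes was not computed for these counts, so how far they depart from it is unknown.

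The D3 and D9 populations took no part in the choice and compare SSEA1+ with Thy1+ cells directly. At D3 in shLuci, 145 members were lower and 1 higher in SSEA1+ than in Thy1+ cells, against 28.8% and 35.4% of all genes, and the median difference was -2.45 on the log2 scale. At D9, 123 were lower and 15 higher, against 30% and 38.8% of all genes, and the median was -1.52. At D6 in shCTCF, 141 were lower and 0 higher (33.8% and 41.4% of all genes), with a median of -3.21. Thy1 itself is a member and a sort marker, and its difference between these populations is no finding. The 1 higher gene at D3 was Klf5, a Krüppel-like factor used by pluripotent cells, with 636 and 728 in SSEA1+ and 554 and 486 in Thy1+ cells (0.39, SE 0.138, adjusted p = 0.0156). That call was lost without the second SSEA1+ library (adjusted p = 0.142) or the second Thy1+ library (adjusted p = 0.139). At D9 Klf5 was higher by 0.74 (adjusted p = 3.41e-05), with 788 and 753 in SSEA1+ and 456 and 464 in Thy1+ cells.

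Matrix proteins had the largest differences at D3. Of the 25, 24 were lower in SSEA1+ than in Thy1+ cells, with a median of -3.94, and all 13 matrix enzymes were lower, with a median of -3.07. Col3a1, a fibrillar collagen chain, had 386 and 451 in D3 SSEA1+ cells, against 7000 and 6662 in D3 Thy1+ cells (-4.03, SE 0.125, adjusted p = 6.23e-20). Mmp14, a membrane-bound collagenase, had 602 and 690 in SSEA1+ cells, against 5584 and 5272 in Thy1+ cells (-3.07, SE 0.0943, adjusted p = 4.69e-20). In none of these genes did the 2 populations overlap. The whole lists moved the same way, but the fibrillar matrix and matrix enzyme lists hold 13 and 6 members, so this is partly built in. Of the 31 fibrillar matrix genes all were lower at D3 (median -3.50), and so were 21 of 22 matrix processing enzymes (median -2.47). The non-member fibroblast markers Cd34, Dcn, Lum, Pdgfra and Twist2 summed to 740 in D3 SSEA1+, 1806 in double negative and 4219 in Thy1+ cells, with none at 0. The other 5 markers of that list, Col1a1, Col1a2, Col3a1, Postn and Thy1, are members. The part of remaining fibroblasts in these differences was not tested.

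Adhesion and cytoskeleton genes were lower at D3 in 20 of 22, with a median of -2.68. Acta2 had 1346 and 1348 in D3 SSEA1+ cells, against 27078 and 28626 in Thy1+ cells (-4.37, SE 0.138, adjusted p = 7.84e-20). Cnn2 had 663 and 646 in D3 SSEA1+ cells, against 5750 and 5727 in Thy1+ cells, again with no overlap. The list of 33 actin genes had 31 lower and 0 higher, with a median of -1.75. All 17 growth factor, receptor and signalling genes were lower at D3, with a median of -2.24, among them Sgk1 with 174 and 156 in SSEA1+ and 2414 and 2535 in Thy1+ cells. Ptn, the heparin-binding growth factor pleiotrophin, had 21 and 31 in D3 SSEA1+ cells, against 524 and 766 in Thy1+ cells. The iron, haem and redox genes were lower in 7 of 7 with a smaller median of -1.53. Fth1, the ferritin heavy chain, named after its values were seen, had 2662 and 2585 in D3 SSEA1+ cells, against 7932 and 7208 in Thy1+ cells (-1.53, SE 0.0925, adjusted p = 8.22e-14). Ftl1, the ferritin light chain, shares sequence with a pseudogene copy, so its values are uncertain.

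All 12 inflammatory and innate immune members were lower in SSEA1+ than in Thy1+ cells at D3, with a median of -2.70, and 11 were lower at D9, with a median of -2.19. Cxcl1, whose promoter is shown above, had 15 and 14 in D3 SSEA1+ cells, against 235 and 205 in Thy1+ cells (-3.83, SE 0.356, adjusted p = 4.74e-10). At D9 it had 488 and 464 in SSEA1+ cells, against 3178 and 3210 in Thy1+ cells (-2.74, adjusted p = 1.64e-07). The levels of Cxcl1 were thus higher at D9 in both populations while the order between them was kept, and within SSEA1+ cells it rose by 4.94 between the days (adjusted p = 4.63e-12). Tnfaip3 had 91 in both D3 SSEA1+ libraries, against 496 and 494 in Thy1+ cells (-2.43, SE 0.120, adjusted p = 9.98e-16). At D9 Tnfaip3 had 1245 and 1309 in SSEA1+ cells, against 4868 and 5310 in Thy1+ cells. Tnfaip2 was lower in both SSEA1+ libraries too, with 84 and 93 at D3, against 1129 and 1106 in Thy1+ cells. Of the 27 genes on the list of NF-kB and inflammatory genes, 25 were lower at D3 and 26 at D9, and 0 were higher at either time.

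The transcription and immediate early members were lower in 10 of 11 at D3 (median -1.53) and in 8 at D9 (median -0.86), with Klf5 higher at both times. Zfp36 had 96 and 126 in D3 SSEA1+ cells, against 465 and 478 in Thy1+ cells (-2.09, SE 0.123, adjusted p = 4.32e-14). At D9 Zfp36 had 1729 and 2022 in SSEA1+ cells, against 6308 and 7056 in Thy1+ cells (-1.83, adjusted p = 7.01e-13). Within SSEA1+ cells Zfp36 rose by 4.08 between D3 and D9 (adjusted p = 5.59e-20). Of the list of 23 immediate early genes, 18 were lower and 2 higher at D3, and 21 were lower and 0 higher at D9.

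SSEA1+ cells had higher levels of most members at D9 than at D3. In shLuci, 134 rose and 2 fell, against 27.1% and 31.1% of all genes, with a median change of 1.64 on the log2 scale. All 25 matrix proteins rose, with a median of 2.54, and all 13 matrix enzymes, with a median of 1.55. Col3a1 had 4358 and 4034 in D9 SSEA1+ cells, against 386 and 451 in D3 SSEA1+ cells (3.33, adjusted p = 6.59e-18), and Fn1 had 25245 and 24910, against 2768 and 3050 (3.11, adjusted p = 7.58e-15). The 2 that fell were Cbr3, a carbonyl reductase (-0.84, SE 0.133, adjusted p = 5.76e-06), and Cited2, a transcriptional coregulator (-0.35, adjusted p = 0.00697). The Cited2 call was lost without the second D3 library (adjusted p = 0.0738) or the first D9 library (adjusted p = 0.0582). In Thy1+ cells 93 members rose and 21 fell between these days, against 24.5% and 31.7% of all genes, with a median of 0.56. The non-member fibroblast markers summed to 3049 in D9 SSEA1+ cells and 14823 in D9 Thy1+ cells, against 740 and 4219 at D3. Among them Twist2 was not higher at D9 in SSEA1+ cells, with means of 113.5 at D9 and 124 at D3. The 25 epithelial markers summed to 58401 in D9 and 17855 in D3 SSEA1+ cells, the 9 primitive endoderm markers to 24270 and 11023.5, and the 10 trophoblast markers to 7220.5 and 522. Sets outside the members thus also differed between the days, and the part of such cells was not tested.

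**Figure D3:**
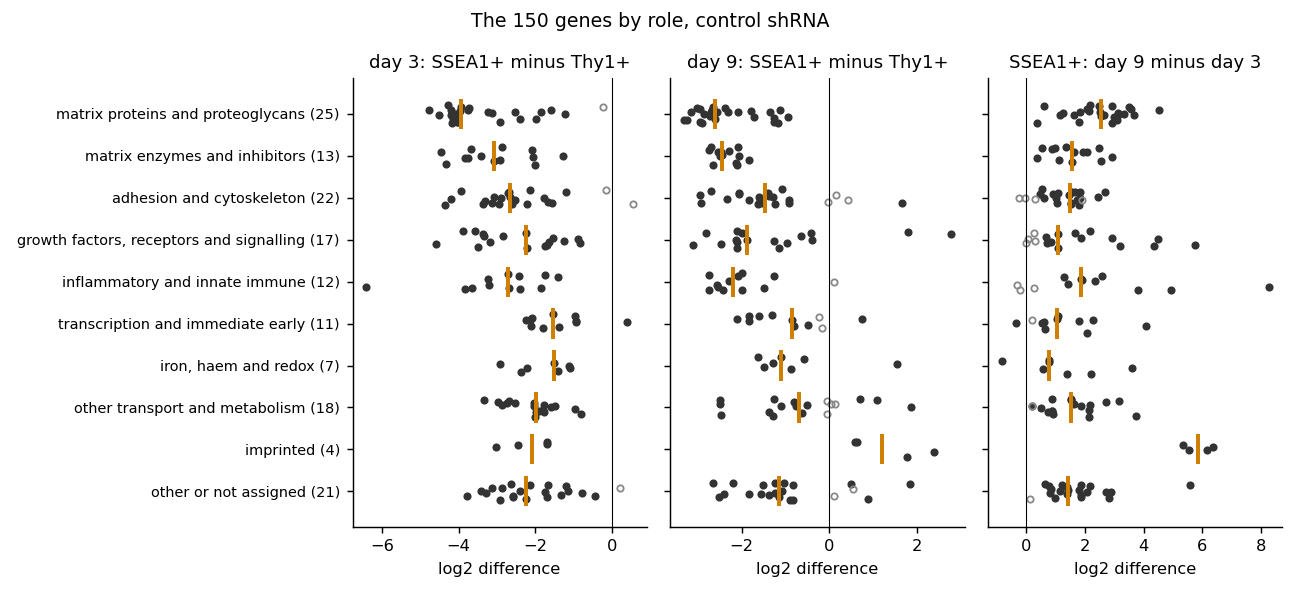
Each of the 150 genes by role, with the log2 difference in shLuci between SSEA1+ and Thy1+ cells at D3 (left) and D9 (middle) and between D9 and D3 in SSEA1+ cells (right); filled points passed the limma test, open points did not, and bars are medians. Matrix proteins have the lowest median at D3 (-3.94), and the 4 imprinted genes are below 0 at D3 and above 0 at D9.

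Double negative cells lay between the other populations. At D3, 103 members were lower and 1 higher in double negative than in Thy1+ cells (14.4% and 13.9% of all genes), with a median of -0.59. At D6, 141 were lower and 1 higher (29.3% and 35% of all genes), with a median of -1.73. At D9, 121 were lower and 10 higher (24.4% and 30.1% of all genes), with a median of -0.97. The higher gene at D6 was Cdh19, a cadherin named after its values were seen, with 836 and 624 in double negative cells against 110 and 0 in Thy1+ cells. At D3 it had 941 and 1018 in double negative cells against 99 and 95 in Thy1+ cells, a difference that did not pass the test, and at D6 the second D6 Thy1+ library was at 0. The D6 call was lost without that library (adjusted p = 0.222) and with only the compared groups in the fit (adjusted p = 0.0518). The higher gene at D3 was Klf5 (0.47, adjusted p = 0.0112), a call lost without the second double negative library (adjusted p = 0.0885) or the second Thy1+ library (adjusted p = 0.125).

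The 4 imprinted members crossed over between D3 and D9. They are Igf2 (chr7:142650766-142666816, minus strand), a fetal growth factor, H19 (chr7:142575529-142578143, minus strand), a long noncoding RNA that lies beside it, Cdkn1c (chr7:143458339-143461050, minus strand), a cyclin-dependent kinase inhibitor, and Peg10 (chr6:4747306-4760517, plus strand), a retrotransposon-derived gene, all with GRCm38 coordinates. At D3 all 4 were lower in SSEA1+ than in Thy1+ cells, with a median of -2.08, and at D9 all 4 were higher, with a median of 1.20. Igf2 had 302 and 295 in D3 SSEA1+ cells, against 2552 and 2352 in Thy1+ cells (-3.03, SE 0.116). At D9 Igf2 had 13260 and 14923 in SSEA1+ cells, against 9146 and 9116 in Thy1+ cells (0.62, adjusted p = 3.5e-05). Igf2 rose by 5.55 (adjusted p = 1.93e-23) in SSEA1+ cells between the days, with no overlap. An unnamed transcript among the members overlaps Igf2 on the same strand, so their values cannot be told apart as independent measurements.

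H19 had 545 and 560 in D3 SSEA1+ cells, against 2806 and 3308 in Thy1+ cells, and at D9 39810 and 39308 in SSEA1+ cells, against 25824 and 26733 in Thy1+ cells. Its differences were -2.46 at D3 and 0.59 at D9 (adjusted p = 9.8e-06). Peg10 had 212 and 222 in D3 SSEA1+ cells, against 839 and 602 in Thy1+ cells, and at D9 18078 and 17696 in SSEA1+ cells, against 3445 and 3390 in Thy1+ cells. The D9 difference of Peg10 was 2.39 (adjusted p = 4.61e-13), and it rose by 6.36 (SE 0.156, adjusted p = 5.77e-22) in SSEA1+ cells between the days. Cdkn1c had 2372 and 3008 in D9 SSEA1+ cells, against 804 and 765 in Thy1+ cells (1.77, adjusted p = 5.47e-09). The populations did not overlap in any of these genes. In the whole list of 27 imprinted genes, 17 were lower and 6 higher in SSEA1+ than in Thy1+ cells at D3, and 11 were lower and 14 higher at D9. Of the 10 trophoblast markers, none of them members, 5 were lower and 1 higher in SSEA1+ than in Thy1+ cells at D3, and 1 was lower and 7 were higher at D9 (median 2.54). They summed to 522 in D3 SSEA1+ cells, where 2 were at 0, against 12622.5 in D3 Thy1+ cells, and to 7220.5 in D9 SSEA1+ cells, against 17906 in D9 Thy1+ cells. All 10 rose in SSEA1+ cells between the days (median 3.70), and their part in the levels of the imprinted members was not tested.

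Other members higher in SSEA1+ than in Thy1+ cells at D9 included Dusp9, a phosphatase of mitogen-activated protein kinases, Nrk, Lrp2, Fabp3, a fatty acid-binding protein, and Nup62cl, a nucleoporin-like gene. Dusp9 had 1811 and 1854 in SSEA1+ cells, against 270 and 264 in Thy1+ cells (2.77, SE 0.150, adjusted p = 1.06e-14). Nrk had 2460 and 2441 in SSEA1+ cells, against 765 and 646 in Thy1+ cells (1.80, adjusted p = 1.44e-09). Lrp2 had 222 and 273 in SSEA1+ cells, against 132 and 100 in Thy1+ cells (1.09, adjusted p = 2.49e-05). None of these 3 genes had overlapping populations, and at D3 both Lrp2 and Nrk were lower in SSEA1+ cells, with differences of -2.98 and -2.84.

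**Figure D4:**
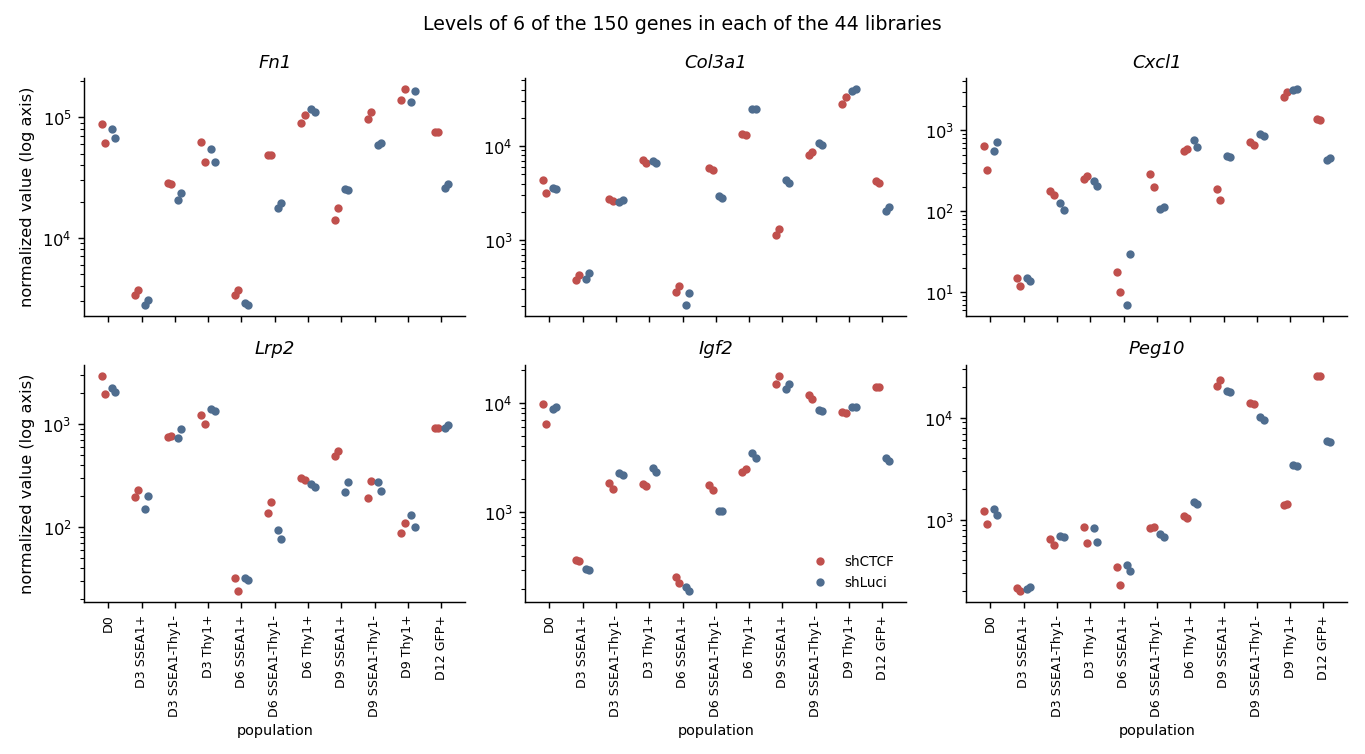
Normalized values on log axes of Fn1, Col3a1, Cxcl1, Lrp2, Igf2 and Peg10 in each of the 44 libraries, with shCTCF points left of shLuci points in each of the 11 populations. Fn1, Col3a1 and Cxcl1 are higher in D9 Thy1+ than in D9 SSEA1+ cells in all libraries, while Igf2 and Peg10 are higher in D9 SSEA1+ cells (14907 and 17752 with shCTCF, 13260 and 14923 with shLuci for Igf2).

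The Ctcf shRNA was set against the control shRNA within each population. The most members were called in D6 double negative cells, where 122 members were higher and 4 lower with shCTCF than with shLuci, against 20.2% and 21.9% of all genes, and the median difference was 0.88 on the log2 scale. In D9 SSEA1+ cells the balance was the other way, with 68 lower and 13 higher, against 9.04% and 4.8% of all genes, and a median of -0.35. The count of 13 fell to 5 without the second shCTCF library, to 7 without the first shLuci library and to 5 without the second shLuci library. In D9 double negative cells 64 were higher and 11 lower (14.6% and 13.4% of all genes), with a median of 0.29. The 11 became 5 without the first shCTCF library and 7 without the second shLuci library. In these D9 cells the non-member fibroblast markers summed to 5590 with shCTCF, against 6842.5 with shLuci, and the 28 pluripotency genes to 29866.5 against 44587. The fibroblast markers were split: Dcn (1174 against 2087) and Lum (271 against 1032) were lower with shCTCF. Cd34 (3186 against 2925.5), Pdgfra (593 against 508) and Twist2 (366 against 290) were higher. The part of a shifted mix of cells was not tested.

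In D6 double negative cells the higher members included 21 of 25 matrix proteins (median 0.90), all 13 matrix enzymes (median 1.02), 20 of 22 adhesion and cytoskeleton genes (median 1.07), 14 of 17 signalling genes (median 0.74) and 8 of 12 inflammatory genes (median 1.14). Sgk1 had 2535 and 2400 with shCTCF, against 766 and 806 with shLuci in these cells (1.65, SE 0.0764, adjusted p = 1.37e-14). Fn1 had 48932 in both shCTCF libraries, against 17611 and 19593 in the shLuci libraries (1.40, SE 0.164, adjusted p = 1.62e-07). Acta2 had 9326 and 11105 with shCTCF, against 3756 and 3492 with shLuci (1.49, SE 0.138, adjusted p = 3.02e-09). In each of these genes both shCTCF libraries were above both shLuci libraries. Nrk had 402 and 304 with shCTCF, against 62 and 54 with shLuci (2.57, SE 0.178, adjusted p = 1.82e-11), which was the largest difference of a member here. Timp3, an inhibitor of matrix proteases, had 7071 and 6476 with shCTCF, against 2087 and 1944 with shLuci (1.75, adjusted p = 9.81e-12). Timp3 overlaps a gene on the opposite strand that is also a member, and whether reads were counted by strand is not given in the sources used here. Cxcl1 was higher by 1.13 (adjusted p = 0.0125), a call lost without the first shCTCF library (adjusted p = 0.131) or the first shLuci library (adjusted p = 0.0664).

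The 4 lower members in D6 double negative cells were Vegfa, Ror2, Spp1 and Fbln1, the matrix protein fibulin 1. The Ror2 call was lost without the second shLuci library (adjusted p = 0.0565), and that of Fbln1 without either shCTCF library (adjusted p = 0.0565 and 0.0627) or the second shLuci library (adjusted p = 0.0932). Vegfa, the vascular growth factor, had 240 and 235 with shCTCF, against 376 and 415 with shLuci (-0.73, SE 0.101, adjusted p = 1.95e-06). Spp1 had 3908 and 3656 with shCTCF, against 5888 and 5777 with shLuci (-0.63, SE 0.125, adjusted p = 0.000234). Both differences were larger than the spread between the libraries. The whole lists, which include members, moved the same way. Of 31 fibrillar matrix genes 27 were higher and 1 lower (median 1.11), and of 33 actin genes 30 were higher and 0 lower (median 0.79). Of 27 NF-kB and inflammatory genes 25 were higher and 0 lower (median 0.80). The non-member fibroblast markers summed to 4302.5 with shCTCF, against 2852.5 with shLuci in D6 double negative cells, the 7 non-member smooth muscle markers to 5744.5 against 2307, and the 28 non-member pluripotency genes, which include the virus-borne factors, to 34567 against 49527. Of the fibroblast markers, Lum went the other way, with means of 87 with shCTCF against 187 with shLuci. The 25 epithelial markers summed to 20019.5 with shCTCF against 19028 with shLuci, and the 10 trophoblast markers to 15070.5 against 4747, with 3 of them called higher and 2 lower. The 6 keratinocyte markers were all called higher (median 1.47). The part of a shifted mix of cells in the members' difference was not tested.

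In D9 SSEA1+ cells, 21 of 25 matrix proteins (median -1.05), 11 of 13 matrix enzymes (median -0.87) and 9 of 17 signalling genes (median -0.37) were lower with shCTCF, while 8 adhesion and cytoskeleton genes were lower and 3 higher, and 4 of 18 transport and metabolic genes moved each way. Col3a1 had 1136 and 1328 with shCTCF, against 4358 and 4034 with shLuci (-1.77, SE 0.125, adjusted p = 1.08e-10). Spp1 had 1944 and 1768 with shCTCF, against 6224 and 6062 with shLuci (-1.73, SE 0.125, adjusted p = 1.56e-10). Mmp14 had 1050 and 1303 with shCTCF, against 1995 and 1984 with shLuci (-0.77, SE 0.0943, adjusted p = 1.34e-06). The shCTCF libraries lay below both shLuci libraries in each of these genes. Vegfa had 113 and 112 with shCTCF, against 240 and 270 with shLuci (-1.17, SE 0.101, adjusted p = 3.41e-09), and Zfp36 had 914 and 1030, against 1729 and 2022 (-0.95, adjusted p = 3.16e-06). Fn1 had 14044 and 17743 with shCTCF, against 25245 and 24910 with shLuci (-0.67, adjusted p = 0.00582), a call lost without the first shCTCF library (adjusted p = 0.132) and with only the compared groups in the fit (adjusted p = 0.0535). Cxcl1 had 188 and 139 with shCTCF, against 488 and 464 with shLuci (-1.55, adjusted p = 0.00328), a call lost without the second shCTCF library (adjusted p = 0.0557). Lrp2 went the other way, with 488 and 552 with shCTCF, against 222 and 273 with shLuci (1.07, SE 0.198, adjusted p = 0.000353). Of the 31 fibrillar matrix genes 28 were lower and 0 higher, and of 23 immediate early genes 19 were lower and 0 higher. Of 27 NF-kB and inflammatory genes 15 were lower and 1 higher. The non-member fibroblast markers summed to 1545 with shCTCF, against 3049 with shLuci, the smooth muscle markers to 2096.5 against 3013.5 and the epithelial markers to 69907.5 against 58401. The part of these cells in the difference was not tested.

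In Thy1+ cells the median shRNA effect on the members was near 0 at all 3 days. At D9, 30 were higher and 12 lower (7.51% and 12.1% of all genes), with a median of 0.09. The 30 became 18 without the first shCTCF library, 12 without the first shLuci library and 16 without the second shLuci library, and the 12 became 6 without any of these 3. At D6, 23 were higher and 34 lower (6.83% and 7.56%), with a median of -0.12. The 34 became 22 without either shCTCF library, and the 23 became 13 without the second shCTCF or the first shLuci library. Spp1 had 7700 and 8554 with shCTCF, against 38084 and 35944 with shLuci in D6 Thy1+ cells (-2.19, SE 0.125, adjusted p = 2.24e-12). At D3 the counts were low in all 3 populations. In Thy1+ cells 16 were lower and 0 higher (2.56% and 1.46% of all genes), in double negative cells 13 lower and 7 higher (2.54% and 2.34%), and in SSEA1+ cells 13 lower and 22 higher (3.22% and 3.56%). The medians were -0.05, -0.06 and 0.07. The 16 became 7 without the second shCTCF library, 6 without the first shLuci library and 8 without the second shLuci library. The 13 of double negative cells became 8 without the first shCTCF or the first shLuci library, the 7 became 2 without either shCTCF library and 3 without either shLuci library, and the 22 became 14 without either shLuci library.

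**Figure D5:**
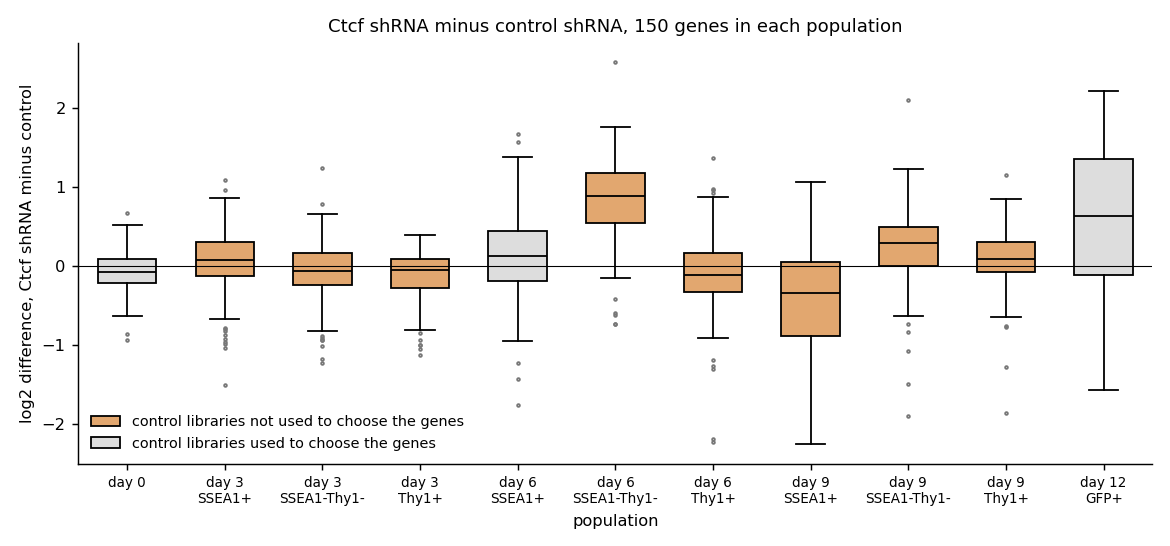
Box plots over the 150 genes of the log2 difference, shCTCF minus shLuci, in the 11 populations, with grey boxes where the shLuci libraries chose the genes. The medians lie at 0.88 in D6 double negative cells and at -0.35 in D9 SSEA1+ cells, and the grey D12 box at 0.63 is a description without a test.

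The difference of the shRNA effect between SSEA1+ and Thy1+ cells was tested as an interaction. At D9, 67 members had a lower effect in SSEA1+ than in Thy1+ cells and 5 a higher one, against 9.43% and 10.3% of all genes, with a median of -0.51. Of the 67, 19 were matrix proteins (median -0.96 of the 25) and 11 matrix enzymes (median -0.88 of the 13). Col3a1 had an interaction of -1.41 (SE 0.177, adjusted p = 2.77e-06). That of Cxcl1 was -1.35 and did not pass the test (adjusted p = 0.0587), though it did with a pseudocount of 10 (adjusted p = 0.0137), with quantile normalization (adjusted p = 0.0279) and with only the compared groups in the fit (adjusted p = 0.00652). The 5 higher ones were Peg10, Dusp9, Lrp2, Cdkn1c and Slc20a1, a phosphate transporter named after its values were seen. Peg10 had 20610 and 23545 with shCTCF against 18078 and 17696 with shLuci in D9 SSEA1+ cells, and 1386 and 1434 with shCTCF against 3445 and 3390 with shLuci in D9 Thy1+ cells. Its effect was 0.30 in SSEA1+ cells (adjusted p = 0.238) and -1.28 in Thy1+ cells (adjusted p = 9.43e-07), with an interaction of 1.58 (SE 0.221, adjusted p = 1.19e-05). Dusp9 had 2606 and 2970 with shCTCF against 1811 and 1854 with shLuci in SSEA1+ cells, and 164 and 148 with shCTCF against 270 and 264 with shLuci in Thy1+ cells (interaction 1.38, SE 0.212, adjusted p = 3.92e-05). The interaction was 1.29 for Lrp2 (SE 0.280, adjusted p = 0.00151) and 1.06 for Cdkn1c (SE 0.266, adjusted p = 0.00554). At D3 the interaction was called for 1 member, the unnamed transcript that overlaps Igf2, and for 0.0372% of all genes lower and 0.164% higher. That call was lost without any 1 of the 8 libraries compared, with adjusted p between 0.0679 and 0.176.

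Averaged over the 8 populations that took no part in the choice, 63 members were higher and 30 lower with shCTCF, against 22.4% and 22.8% of all genes, with a median of 0.07. This average pools populations that differed in direction, with member medians of 0.88 in D6 double negative and -0.35 in D9 SSEA1+ cells. The lowest averages were those of Spp1 (-1.13, SE 0.044, adjusted p = 8.01e-17), Aspn, the proteoglycan asporin (-1.11, adjusted p = 0.000229), Col6a3, a chain of collagen VI (-0.77, adjusted p = 3.71e-12), and Mrc1 (-0.70, adjusted p = 0.0022). The highest were those of Syk (0.78, adjusted p = 8.22e-11), Nrk (0.70, adjusted p = 9.72e-10), Gpr137b, a lysosomal membrane protein (0.66, adjusted p = 7.47e-13), and Jam2, a junctional adhesion molecule (0.58, adjusted p = 8.4e-11). Among the imprinted members, H19 was lower on average by -0.47 (SE 0.035, adjusted p = 2.72e-11), while Igf2 was at 0.02 (adjusted p = 0.689). H19 had 1708 and 1726 with shCTCF, against 3304 and 3296 with shLuci in D3 double negative cells (-0.94, adjusted p = 6.51e-07). H19 had 274 and 265 with shCTCF, against 545 and 560 with shLuci in D3 SSEA1+ cells (-1.03, adjusted p = 1.31e-07), and 6161 and 7350, against 12141 and 11258 in D6 Thy1+ cells (-0.80, adjusted p = 3.01e-06). In D9 SSEA1+ cells the difference was -0.09 for H19 (adjusted p = 0.639) and 0.21 for Igf2 (adjusted p = 0.275).

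In the 3 populations whose shLuci libraries chose the genes, the shCTCF difference is a description. Its median was -0.07 in D0, 0.13 in D6 SSEA1+ and 0.63 in D12 cells, with 108 members above 0 in D12, where the median of all genes was -0.07. The imprinted members stood high there: Igf2 had 14080 and 14038 with shCTCF, against 3113 and 2926 with shLuci, H19 had 39602 in both shCTCF libraries, against 9418 and 9468 with shLuci, and Peg10 had 25874 and 25401, against 5906 and 5770. Fn1 had 75677 in both shCTCF libraries, against 25824 and 28124 with shLuci in D12 cells. The non-member fibroblast markers summed to 4329 with shCTCF, against 1690.5 with shLuci in D12 cells, and the pluripotency genes to 74520 against 114458. The trophoblast markers summed to 11154 with shCTCF against 3143 with shLuci, the primitive endoderm markers to 28350 against 12271 and the smooth muscle markers to 3238 against 1086, and their part in the D12 values was not tested.

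A separate table held raw counts of 1 library of established induced pluripotent stem cells and 1 of fibroblasts, with totals of 9912018 and 16593659 reads on genes, and allows no test. Of the 150 genes, 146 were in it. In the pluripotent library 76 were at least 2-fold lower and 36 at least 2-fold higher than in the fibroblast library, against 24.1% and 26% of all genes, with a median of -1.23 on the log2(CPM + 1) scale, against 0.03 for all genes. A level of at least 10 CPM was present in the pluripotent library for 131 members. Fn1 had 7413 CPM in the pluripotent library and 29059 CPM in the fibroblast library. Col3a1 had 264 CPM in the pluripotent and 3103 CPM in the fibroblast library, and Acta2 had 49.9 CPM in the pluripotent and 4556 CPM in the fibroblast library. H19 had 63.9 CPM in the pluripotent and 1681 CPM in the fibroblast library, and Igf2 had 154 CPM in the pluripotent and 2527 CPM in the fibroblast library. Higher in the pluripotent library were Klf2, with 249 CPM against 24.6 CPM in fibroblasts, and Peg10, with 229 against 51.8 CPM. So were Lrp2, with 48.2 against 8.74 CPM, and Dusp9, with 17.8 against 4.04 CPM. Nrk and Cdkn1c went the other way. Nrk had 3.63 CPM in the pluripotent and 51.7 CPM in the fibroblast library, and Cdkn1c had 1.51 and 44.3 CPM.

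In the authors' deposited table of a day 10 comparison with Ctcf shRNA, which names no conditions and was oriented by its lower Ctcf value (-0.34 on its log2 scale), 44 members were lower and 13 higher at the authors' p below 0.05. Of the genes that the authors' deposited table shares with the sorted-cell data, 10.8% were lower and 11.4% higher, and the median of the members was -0.08. Among all 150 members, 16 overlap another gene of the table in the annotation, among them Igf2 and Timp2 on the same strand and Timp3, Aspn, Junb and Ltbp3 on the opposite strand, so reads may have been shared between the partners. On the X chromosome lay 9 members, or 6.0%, against 3.92% of all genes.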

How the data were processed

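RNA was extracted with TRIzol and libraries were made with an NEBNext Ultra kit, per the labels' protocols; strand counting is not given in the sources used here. Trim Galore, FastQC and RSEM, and the builds mm9, mm10 and GRCm38, are named without roles in the submitters' processing notes. The sorted-cell table holds the authors' deposited normalized values, treated as a score, in whole numbers on a common distribution; its 819 repeat rows were left out. Differences were tested in R 4.3.3 with limma 3.58.1 on log2(value + 1), without weights for depth, with 1 coefficient for each of the 22 groups, mean-variance trend, 22 residual degrees of freedom and Benjamini-Hochberg adjustment over the 13451 genes with at least 10 in at least 2 libraries; adjusted p below 0.05 was called. Each sorted-cell group had 2 libraries (n = 2), and no difference between these groups is a fold on raw reads.

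The fibroblast and pluripotent cell table holds deposited raw counts per gene, per the labels mapped to mm9, which were scaled here to CPM of the deposited count totals. The authors' deposited day 10 table gives their own log2 differences and p-values and was used as such. Tables of overexpression experiments were not used here.

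The members, gene lists and roles were chosen with earlier results of these data known. Genes were named by rule: the first 15 by ratio, those at the edges, the 4 largest differences in each direction in the main comparisons among called members, and members of the gene lists; others are said to be named after their values were seen. Alternatives were another pseudocount (10), a stricter filter (100) or none, quantile normalization, a robust fit, compared groups only, a replicate block, members chosen by replicate 1 or with 100 added to the ratio, and each library left out in turn. The fit was tested on simulated data. Coordinates are those of GENCODE vM21 on GRCm38. A few genes that these rules name are not reported here.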

Additional observations from a re-analysis of the deposited data

Results flagged for a closer look

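For some of the 150 genes the effect of the Ctcf shRNA differed between SSEA1+ and Thy1+ cells in the limma interaction test with Benjamini-Hochberg adjustment. On day 9, 67 members had a lower effect in SSEA1+ than in Thy1+ cells (9.43% of all genes did) and 5 had a higher one, a smaller share than the 10.3% of all genes. On day 3 the count was 1, higher in SSEA1+ cells (0.164% of all genes). Among the 67, Col3a1 had 1136 and 1328 with shCTCF against 4358 and 4034 with shLuci in SSEA1+ cells. In Thy1+ cells of the same day the shCTCF difference of Col3a1 was -0.36 on the log2 scale. The 5 were Peg10, Dusp9, Lrp2, Cdkn1c and Slc20a1, and for Lrp2 the shCTCF difference was 1.07 in SSEA1+ cells and -0.22 in Thy1+ cells (adjusted p = 0.473). The day 3 gene, a transcript overlapping Igf2, lost its call when any 1 of the 8 libraries compared was left out.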

How the results depend on the processing

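Across the alternatives listed with the processing, 558 counts of called members stayed within 1.5 times and 60 moved. Among single-gene tests 11957 kept their direction and side of the threshold, 445 lost the call, 6 gained it and 1 turned: the uncalled difference of Tmsb10 between D6 SSEA1+ and D12 shCTCF cells was 0.14 without the first and -0.12 without the second SSEA1+ library. With only the compared groups in the fit, which leaves fewer residual degrees of freedom, the shCTCF counts became 0 lower in D3 Thy1+, 1 lower and 0 higher in D3 SSEA1+, 2 higher in D3 double negative, 6 lower and 7 higher in D9 Thy1+ and 3 higher in D9 SSEA1+ cells, and the D3 interaction had 0 higher. In that fit, 2 members were higher in SSEA1+ and 2 in double negative than in Thy1+ cells at D3, and 0 in double negative cells at D6. With members chosen by replicate 1, 1 fell in SSEA1+ cells between D3 and D9, 0 were higher in double negative cells at D6 and 3 were higher with shCTCF in D3 Thy1+ cells, and with 100 added to the ratio that last count was 1. A pseudocount of 10 gave 2 higher in double negative cells at D3, and quantile normalization gave 0 higher in the D3 interaction. The causes were not tested.

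No pairing of libraries by replicate number was seen: deviations of same-numbered libraries correlated between -0.044 and 0.107 over 18 pairs of groups. The correlation was taken over all genes, so it cannot exclude pairing that touches only some of them. With the replicate block, 12 members were higher with shCTCF in D3 double negative cells and 2 in the D3 interaction.

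Leaving out 1 library at a time gave, for SSEA1+ over Thy1+ at D3, 0 to 2 higher, for SSEA1+ at D9 over D3, 1 to 2 lower, and for double negative over Thy1+ cells, 0 to 2 higher at D3 and 0 to 1 at D6. For shCTCF it gave 6 to 13 lower in D3 Thy1+, 14 to 17 higher in D3 SSEA1+, 8 to 11 lower and 2 to 3 higher in D3 double negative, 22 to 24 lower and 13 to 16 higher in D6 Thy1+, 6 to 9 lower and 12 to 20 higher in D9 Thy1+, 5 to 12 higher in D9 SSEA1+ and 5 to 9 lower in D9 double negative cells, and 0 to 1 lower and 0 to 2 higher in the D3 interaction. With 2 libraries a group, a left-out library leaves 1 that is assumed to vary like the other groups. The unknown depth limits the precision of low values.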
